A study of Mus musculus with 4 samples.

Results

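The genes described here encode growth factors, cytokines, guidance cues and their receptors. They were measured by RNA sequencing of the pyloric stomach of C57BL/6 mice in which Lats1 and Lats2, kinases of the Hippo pathway, can be deleted in cells that express Lgr5. The members are all rows of the authors' deposited table whose mouse gene symbol begins with the name of a family of such proteins (Tgfa and Tgfb, Bmp, Inh, Acvr, Wnt, Fzd, Lrp, Fgf, Egf, Erbb, Eph, Efn, Pdgf, Vegf, Igf, Il, Ifn, Tnfrsf, Tnfsf, Sema, Plxn, Nrp, Robo, Slit, Ntn, Csf, Gdf, Kit and a few more). The rule found 52 of 2701 listed genes. By what their products are known to be, 18 are ligands, 28 are receptors, 4 are soluble binding proteins, and 2 are enzymes that only share a symbol stem.

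Lats1/2 KO denotes Lats1fl/fl;Lats2fl/fl;Lgr5-CreER mice (2 libraries), in which recombination starts in Lgr5-expressing cells of the gland base and passes to their descendants. WT denotes Lats1fl/fl;Lats2fl/fl mice, with both genes floxed and no Cre (2 libraries). Both groups were collected 8 weeks after tamoxifen. The RNA came from cryosections 10 µm thick, so every level averages recombined and unrecombined epithelium with stroma, vessels and immune cells, and fewer cells of a type and less RNA per cell cannot be told apart.

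Secreted growth factors and cytokines bind receptors on the same or a neighbouring cell. Receptor tyrosine kinases such as EGFR and the FGF receptors pass the signal through RAS and ERK, cytokine receptors through JAK kinases and STAT factors, and TGF-beta family receptors through SMAD proteins. Semaphorins, ephrins, netrins and their receptors are best known from axon guidance and also act on epithelium and vessels. In the stomach, WNT, BMP and EGF family signals are known for their part in renewing and maturing the gland epithelium.

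The table holds only genes that passed the authors' threshold of an adjusted p of 0.05 in this same contrast, 20.6% of the 13142 genes inferred as tested. Rose and fell therefore mean that a gene is listed there, and that selection also fixed that nearly every listed gene separates the groups. GENCODE M21 has 397 protein-coding genes that match the symbol rule, and 345 of them have no row and were not analysed here. Levels are normalized counts, that is, read counts divided by the authors' size factors, and values after ± are the SD over 2 libraries unless marked SE. Log2 fold changes come from edgeR. Their SE was derived as the size of the log2 fold change divided by the square root of its edgeR F statistic. The authors' own log2 fold changes were smaller in size for every member. They were 3.32 for Ntng1, -1.46 for Il18bp and 0.92 for Fgfrl1, where edgeR gave 7.26, -2.30 and 1.03. The labels say only that tissue was collected in duplicate, so p-values measure the spread between these libraries, which may be technical.

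Listed genes held 13413629 and 14225132 counts in Lats1/2 KO and 14315314 and 17689207 in WT. Across listed genes the log-scale levels correlated at r = 0.979 between the Lats1/2 KO libraries, at 0.980 between the WT libraries, and at 0.840 to 0.922 between groups (genes are not independent replicates). Lats1 had 943 and 1129 normalized counts in Lats1/2 KO and 2152 and 1974 in WT, lower as the Lats1/2 KO label implies, and Lats2 has no row and was not analysed here. Of 9 surface mucous markers 6 were listed, all lower, and their summed level was 2430800 and 1976700 in the Lats1/2 KO libraries and 4497500 and 4779800 in the WT libraries, so gastric epithelium was present in every library. The 2 listed of 7 enteroendocrine markers, Ghrl and Sst, summed to 317.8 and 1624.9 in Lats1/2 KO and 63.1 and 72.8 in WT, and their part in the results was not tested. Kcnj15 was the 1 listed of 5 parietal markers, at 345 ± 43.7 in Lats1/2 KO and 1127 ± 50.1 in WT. Avil was the 1 listed of 5 tuft markers, at 13495 ± 24.6 in Lats1/2 KO and 24198 ± 4745 in WT. Krt4 was the 1 listed of 7 squamous markers, at 135 ± 16.4 in Lats1/2 KO and 42.8 ± 15.9 in WT. A single listed gene does not show how its cell type changed. Of 8 pancreatic acinar markers 2 were listed. Cela1 averaged 8872 ± 1541 in Lats1/2 KO and 4496 ± 1233 in WT, and Cela2a had 3.62 and 0.782 in Lats1/2 KO and 6.31 and 215 in WT. The 2 genes did not go together: WT 2 was the lowest library for Cela1 and the highest for Cela2a. The part of these cell types in the results was likewise not tested. No row was found for markers of smooth muscle (8), T and NK cells (8), B and plasma cells (6) or neurons and glia (8).

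Of the 52 members, 23 rose and 29 fell, which is 44.2% higher against 42.9% higher and 57.1% lower among all listed genes. The split of the members was thus near that of the table. Counts by family and by gene list below are small, and none was tested against these shares. Ligands went 6 higher and 12 lower, receptors 12 higher and 16 lower. The median log2 fold change was -0.64 for ligands (-1.52 to 7.26) and -0.57 for receptors (-1.19 to 2.64), beside -0.50 for all listed genes. Normalized counts of the groups did not overlap in all 52, and edgeR called all 52, against 99.9% of listed genes in each case, so neither count says anything particular about the members.

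**Figure D1:**
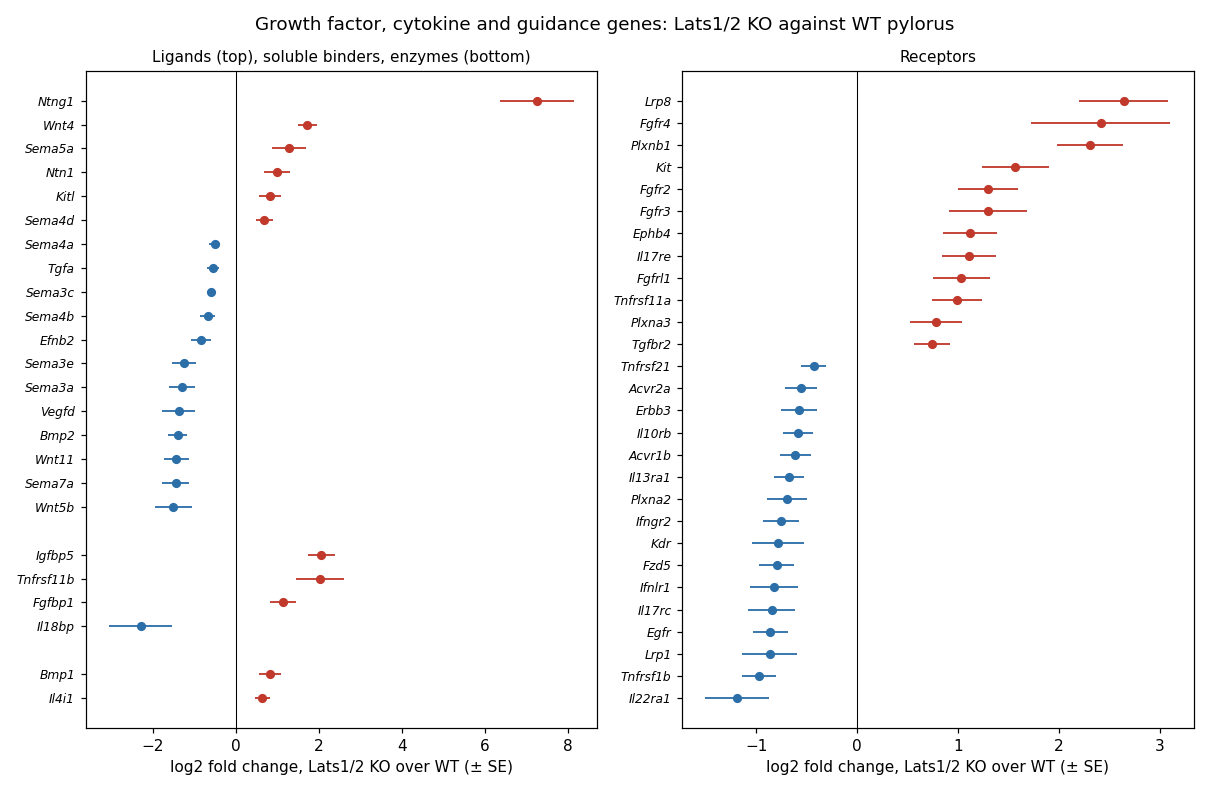
Log2 fold change of Lats1/2 KO over WT (edgeR, points) with its SE (bars) for the 52 members, ligands, soluble binders and enzymes on the left and receptors on the right. Higher members are red and lower ones blue; Ntng1 lies far to the right at 7.26, while falls stay within -2.30 (Il18bp).

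The members that rose stood lower in the tissue than those that fell. Per kilobase of exon, the median WT level was 24.6 normalized counts for the 23 that rose and 490.4 for the 29 that fell. In Lats1/2 KO the same medians were 52.5 and 282.7. All listed genes had the same order in WT, with medians of 59.8 for those that rose and 730.3 for those that fell. The 2 most abundant members per kilobase were Tnfrsf21, at 1776 in Lats1/2 KO and 2399 in WT, and Erbb3, at 1076 and 1604 per kilobase in Lats1/2 KO and WT. Ntng1 was the lowest in WT, at 0.0765.

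**Figure D2:**
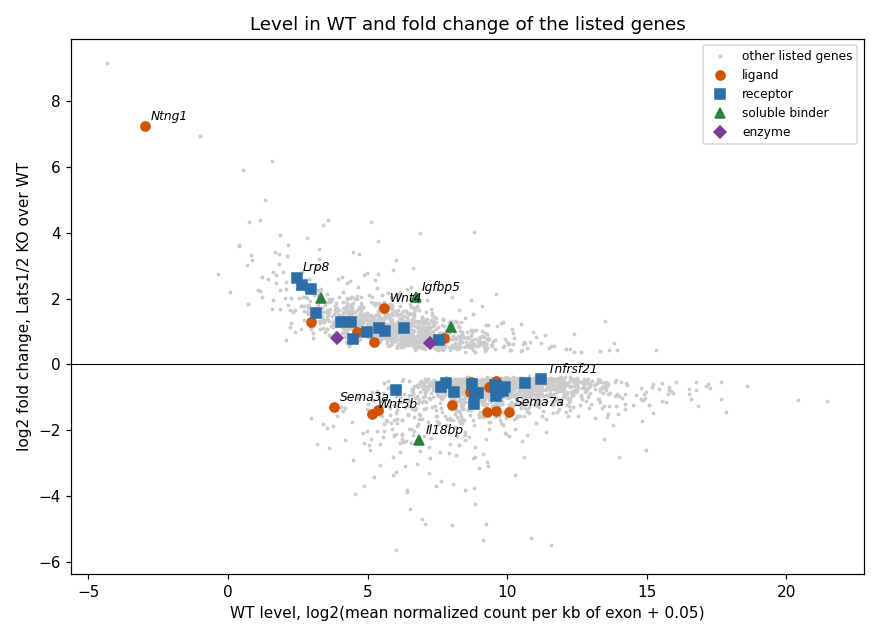
Mean WT level (x, log2 of normalized counts per kilobase of exon + 0.05) against the log2 fold change of Lats1/2 KO over WT (y) for the members, coloured by role, and the other listed genes (grey). Members that rose lie mostly left of those that fell, as do the other listed genes; the empty band around 0 is the authors' threshold.

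The number of falls depends on the scaling. TMM factors computed from the listed genes alone raise the log2 fold changes by a median of 0.36, and edgeR then calls 23 higher and 8 lower members, in place of 23 and 29. Over all listed genes the calls are then 70.1% higher in place of 42.9%. The listed genes were selected for a difference, and 57.1% of them fell, so factors computed from them may be shifted. Genes without a row are not available here, so which scale is nearer the true levels was not tested. A miss on the TMM scale cannot separate a small fall from such a shift. The 8 falls called on both scales are in Bmp2, Wnt11, Sema3a, Sema3e, Sema7a, Egfr, Tnfrsf1b and Fzd5. Sema3a and Fzd5 passed only narrowly on TMM factors (edgeR adjusted p = 0.0499 and 0.0477). DESeq2 size factors from the same genes shift the log2 fold changes by 0.41. Sema3a and Fzd5 then miss the threshold as well, and 6 falls are called. No member changed direction on any of these scales.

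Promoters of 46 members were found in RefSeq (GRCm38.p6), as windows of 300 bases that run from 250 bases before a start to 50 after it. They were searched on both strands for GGAATG, the core bound by the TEAD partners of YAP, for TGANTCA (AP-1), CACGTG (E-box) and the core of the interferon-stimulated response element. These motifs do not overlap one another in the windows printed. GGAATG lay in 8 of 46 members' windows (17.4%) and in 14.7% of all 32841 windows. Among the members it lay in 6 of 20 windows of genes that rose (Ntng1, Fgfr4, Plxnb1, Igfbp5, Il17re and Tnfrsf11a) and in 2 of 26 of genes that fell (Efnb2 and Tnfrsf1b). The same split was not computed for all listed genes, so a link between the motif and the direction was not tested. The full set of windows can hold several for a gene, while each member has only the nearest. The other motifs lay in 2, 5 and 1 members' windows, for AP-1, E-box and the interferon core, against 7.81%, 7.15% and 3.44% of all windows. A match is a run of letters and not a shown binding site, and 6 windows lie over 1000 bases from the deposited gene start.

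The 4 windows below belong to the genes with the largest fold changes among those that rose and hold the TEAD core. They were chosen after these values were seen. Each runs 5′ to 3′ on the gene's own strand, with GGAATG or its reverse complement in capitals.
Ntng1, chr3:110143423-110143722, minus strand: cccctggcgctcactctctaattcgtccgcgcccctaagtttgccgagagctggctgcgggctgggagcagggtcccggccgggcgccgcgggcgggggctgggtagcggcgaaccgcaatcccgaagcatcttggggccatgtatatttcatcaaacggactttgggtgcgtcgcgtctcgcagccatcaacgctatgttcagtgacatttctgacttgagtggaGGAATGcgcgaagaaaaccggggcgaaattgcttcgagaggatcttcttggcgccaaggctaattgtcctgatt
Fgfr4, chr13:55152568-55152867, plus strand: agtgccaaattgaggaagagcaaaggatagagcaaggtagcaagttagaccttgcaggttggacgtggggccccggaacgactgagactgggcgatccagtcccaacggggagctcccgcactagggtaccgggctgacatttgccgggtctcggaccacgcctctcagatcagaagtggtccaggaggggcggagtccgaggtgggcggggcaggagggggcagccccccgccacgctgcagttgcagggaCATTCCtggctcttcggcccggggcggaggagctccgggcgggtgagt
Plxnb1, chr9:109095186-109095485, plus strand: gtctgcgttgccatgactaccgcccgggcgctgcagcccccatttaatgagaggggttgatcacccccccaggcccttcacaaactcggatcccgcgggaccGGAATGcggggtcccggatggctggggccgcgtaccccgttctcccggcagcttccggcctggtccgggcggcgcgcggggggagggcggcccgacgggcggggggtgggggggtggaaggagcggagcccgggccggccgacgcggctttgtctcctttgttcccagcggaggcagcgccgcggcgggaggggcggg
Igfbp5, chr1:72874816-72875115, minus strand: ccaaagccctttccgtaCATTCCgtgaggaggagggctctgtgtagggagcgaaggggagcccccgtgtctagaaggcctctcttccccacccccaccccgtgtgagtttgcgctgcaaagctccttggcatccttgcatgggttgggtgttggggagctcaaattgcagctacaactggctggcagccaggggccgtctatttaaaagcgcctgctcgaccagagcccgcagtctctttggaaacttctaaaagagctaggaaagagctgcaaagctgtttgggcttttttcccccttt

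Among the ligands that rose, Ntng1 (ENSMUSG00000059857, chromosome 3, 109780040 to 110144011, GRCm38), a membrane-anchored relative of the netrins, was nearly absent in WT. It had 133 and 85.2 normalized counts in Lats1/2 KO and 1.26 and 0 in WT, from 256 raw reads against 1. The ratio was 182.5 with a 95% exact interval of 32.5 to 7235 that covers counting error only, and its adjusted p was 3.05e-10 (the authors' deposited table). Both Lats1/2 KO libraries stood far above both WT libraries, and the fitted log2 fold change of 7.26 depends on the prior count. Per kilobase it was still a low-level transcript in Lats1/2 KO, at 13.2 normalized counts.

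Ntn1, the secreted netrin that guides axons through DCC and UNC5 receptors, had 239 and 378 normalized counts in Lats1/2 KO and 153 and 157 in WT. Its log2 fold change was 1.00 ± 0.31 (SE), and 0.63 without Lats1/2 KO 2. The higher of the Lats1/2 KO libraries thus carried much of the difference. Of 28 effectors and further receptors of guidance cues, 2 were listed, and both fell. Unc5b, a netrin receptor, had 2828 and 2379 normalized counts in Lats1/2 KO and 4548 and 6029 in WT. Mical2, an actin-oxidising enzyme, had a log2 fold change of -0.48 ± 0.15 (SE).

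Wnt4 (ENSMUSG00000036856, chromosome 4, 137277489 to 137299726), a secreted WNT best known from kidney and female reproductive tract development, had 616 and 708 normalized counts in Lats1/2 KO and 175 and 226 in WT. It rose by 1.72 ± 0.24 (SE) on the log2 scale, and its adjusted p was 3.45e-08 (the authors' deposited table). The lower Lats1/2 KO library was above the higher WT library by more than either group's own spread. The other listed WNT ligands and the one listed Frizzled receptor moved the other way.

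Wnt11 (ENSMUSG00000015957, chromosome 7, 98835112 to 98855195), which acts mainly through beta-catenin-independent WNT signalling, had 1213 and 700.3 normalized counts in Lats1/2 KO and 2290 and 2891 in WT. It fell by 1.44 on the log2 scale (SE 0.30). Wnt5b, of the same branch, was a low-level transcript at 33.5 and 32.8 normalized counts in Lats1/2 KO and 73.2 and 117 in WT. Fzd5, a Frizzled receptor, had 3934 and 3330 in Lats1/2 KO and 5549 and 7079 in WT. Of the exon bases of Fzd5, 17.8% are shared with Gm38058 on the opposite strand, and 8.80% of those of Wnt11 with Gm8398. In Wnt11, Wnt5b and Fzd5 every Lats1/2 KO library lay below every WT library.

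Of 35 further genes of WNT signalling, 8 were listed, 5 higher and 3 lower. Of all genes inferred as tested 20.6% were listed, with 57.1% of those lower. Porcn and Wls, which acylate and escort WNT proteins for secretion, rose: Porcn averaged 293 ± 26.3 in Lats1/2 KO and 135 ± 13.7 in WT, and Wls 2194 ± 14.3 in Lats1/2 KO and 1254 ± 202 in WT. Ror2, a receptor for beta-catenin-independent WNT ligands, had a log2 fold change of 1.52 ± 0.45 (SE), Znrf3, a ubiquitin ligase that removes Frizzled receptors, 0.97 ± 0.31 (SE), and Dvl1, their intracellular adaptor, 0.54 ± 0.16 (SE). Tcf7l2, the DNA-binding partner of beta-catenin, fell to 495 ± 45.4 in Lats1/2 KO, against 962 ± 9.25 in WT. The R-spondin receptors Lgr4 and Lgr5 also fell, Lgr4 to 5141 ± 101 in Lats1/2 KO against 7885 ± 344 in WT. Lgr5 was at 25.6 ± 0.311 in Lats1/2 KO and 79.2 ± 29.9 in WT, and because only the Lats1/2 KO mice carry the Lgr5-CreER allele, its effect on Lgr5 and that of the deletion cannot be told apart.

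Bmp2 (ENSMUSG00000027358, chromosome 2, 133552159 to 133562885), a bone morphogenetic protein that signals through SMAD proteins, had the smallest adjusted p among all members that fell (1.39e-06 in the authors' deposited table). It had 1256 and 847 normalized counts in Lats1/2 KO and 2733 and 2849 in WT, a log2 fold change of -1.41 ± 0.22 (SE). The WT libraries differ little, and both lie above the higher Lats1/2 KO library by more than 2 times.

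The receptors of this family divided. Tgfbr2, the type II receptor for TGF-beta itself, rose, with 2349 and 2762 normalized counts in Lats1/2 KO and 1683 and 1374 in WT. The activin receptors fell: Acvr1b averaged 2180 ± 294 in Lats1/2 KO and 3338 ± 180.3 in WT. Acvr2a, which shares 7.84% of its exon bases with Orc4 on the opposite strand, averaged 873 ± 56.8 in Lats1/2 KO and 1287 ± 24.1 in WT. On the TMM scale Acvr1b and Acvr2a missed the threshold (edgeR adjusted p = 0.149 and 0.284). Of 31 antagonists, SMADs and targets, 7 were listed, 2 higher and 5 lower. Over all genes inferred as tested the shares were 20.6% listed and, of those, 57.1% lower. The activin antagonist Fst rose to 171 ± 31.5 in Lats1/2 KO, against 31.1 ± 15.4 in WT. Id1 and Id3, which BMP signals are known to induce, fell with log2 fold changes of -0.80 ± 0.20 and -0.62 ± 0.19 (SE), while Id2 rose by 0.72 ± 0.24 (SE). The inhibitory Smad6 and Smad7, also SMAD targets, had log2 fold changes of -0.77 and -0.63, and Skil, a SMAD corepressor, -0.61.

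All 4 listed FGF receptor genes rose, together with the FGF-binding protein gene Fgfbp1, each by at least 1 on the log2 scale, a size reached by 24.6% of listed genes in this direction. Fgfr4 (ENSMUSG00000005320, chromosome 13, 55152640 to 55168759), with its promoter shown above, had 83.3 and 149 normalized counts in Lats1/2 KO and 34.1 and 9.93 in WT. Fgfr2 had 503 and 581 in Lats1/2 KO and 273 and 169 in WT. Fgfr3 had 317 and 257 in Lats1/2 KO and 154 and 80.5 in WT. In all of these WT 2 was the lowest library and no Lats1/2 KO library reached down to WT 1.

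Fgfrl1, a related receptor that lacks the kinase domain, had 256 and 301 normalized counts in Lats1/2 KO and 154 and 119 in WT. The log2 fold changes were 2.41 ± 0.69, 1.30 ± 0.30, 1.29 ± 0.39 and 1.03 ± 0.28 (SE) for Fgfr4, Fgfr2, Fgfr3 and Fgfrl1, and the first was 1.77 without WT 2 and 3.54 without WT 1. Fgfbp1, which releases FGFs from the matrix, had 887 and 1631 in Lats1/2 KO and 570.4 and 579 in WT, and its log2 fold change of 1.13 ± 0.31 (SE) was 0.63 without Lats1/2 KO 2. The deposited span of Fgfr2 (chromosome 7, 130162451 to 133123350) includes Ctbp2 on the same strand, which shares 314 bases of exon with it, so reads there are uncertain. Fgfr3 shares 13.9% of its exon bases with G630022F23Rik on the opposite strand. No gene for an FGF ligand was listed.

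Of 28 RAS and ERK effectors and feedback genes, 4 were listed, 2 higher and 2 lower. Etv4 and Etv5, ETS factors that FGF and ERK signals are known to induce, rose: Etv5 had 991 and 1403 normalized counts in Lats1/2 KO and 375 and 184 in WT, and Etv4 had 243 and 352 in Lats1/2 KO and 101 and 50.7 in WT. Spry2, a feedback inhibitor of the same pathway, averaged 356 ± 2.15 in Lats1/2 KO and 649.8 ± 209 in WT, and Map2k1, which encodes MEK1, averaged 3541 ± 359.9 and 6443 ± 605 in Lats1/2 KO and WT. ETS factors and feedback inhibitor thus moved in opposite directions.

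The 3 listed members of the EGF family fell, as did 57.1% of all listed genes. Egfr (ENSMUSG00000020122, chromosome 11, 16752203 to 16918158), the EGF receptor, had 3344 and 2772 normalized counts in Lats1/2 KO and 4928 and 6181 in WT. Tgfa, one of its ligands, had 1680 and 1994 in Lats1/2 KO and 2668 and 2704 in WT. Erbb3, a neuregulin receptor that signals with other ERBB members, averaged 6472 ± 1176 in Lats1/2 KO and 9651 ± 1093 in WT. The groups were separate in all of these, but the log2 fold changes of -0.86, -0.55 and -0.58 became -0.50, -0.19 and -0.21 on the TMM scale, where Tgfa and Erbb3 missed the threshold (edgeR adjusted p = 0.286 and 0.253).

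Outside the symbol rule, 4 of 14 EGF family ligands, processing enzymes and brakes were listed. Areg, another EGFR ligand, averaged 2252 ± 20.2 in Lats1/2 KO and 5923 ± 2336 in WT, and Adam10, a protease that sheds such ligands, 7396 ± 1054 in Lats1/2 KO and 11623 ± 255 in WT. The receptor brakes Lrig1 and Lrig3 rose instead, Lrig3 to 305 ± 18.6 in Lats1/2 KO against 154 ± 18.0 in WT. Ligands, receptors and the protease were lower together while both listed LRIG genes were higher.

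Among the remaining receptor tyrosine kinases, Kit (ENSMUSG00000005672, chromosome 5, 75574916 to 75656722), the receptor for stem cell factor, had 265 and 199 normalized counts in Lats1/2 KO and 88.3 and 68.4 in WT. Its ligand gene Kitl had 2464 and 2013 in Lats1/2 KO and 1571 and 978 in WT. Kit and Kitl rose by 1.57 ± 0.34 and 0.81 ± 0.26 (SE) on the log2 scale, and Kitl by 0.51 without WT 2. Kit also marks mast cells and pacemaker cells of the gut wall; of 12 myeloid and mast cell markers, Cd14 and Kit were listed, both higher, and the mast cell genes Cpa3 and Fcer1a had no row. The part of those cells in the rise of Kit was not tested.

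Kdr, the VEGF receptor of blood vessel endothelium, lies 276.1 kb from Kit and moved the other way, with 334 and 338 normalized counts in Lats1/2 KO and 462 and 698 in WT. Kdr missed the threshold on the TMM scale (edgeR adjusted p = 0.184). It was the 1 listed gene of 13 endothelial markers. Vegfd, a growth factor for lymphatic vessels, had 35.3 and 41.4 in Lats1/2 KO and 105 and 96.0 in WT. Of 11 fibroblast and matrix genes 3 were listed, all lower, at a summed 7413.6 and 6331.6 in Lats1/2 KO and 10068 and 13681 in WT; their part in these falls was not tested.

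Ephb4 and its ligand gene Efnb2, known as the vein and artery partners of the ephrin system, moved apart. Ephb4 had 832 and 768 normalized counts in Lats1/2 KO and 452 and 288 in WT, and rose by 1.11 ± 0.27 (SE) on the log2 scale. Efnb2 had 1712 and 1431 in Lats1/2 KO and 2264 and 3382 in WT, and its log2 fold change of -0.85 ± 0.23 (SE) was -0.53 without WT 2. Receptor and ligand each separated the groups, in opposite directions. On the TMM scale the log2 fold change of Efnb2 was -0.48, and it missed the threshold (edgeR adjusted p = 0.0895).

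Of the semaphorins, 2 rose and 6 fell, beside 42.9% higher and 57.1% lower among all listed genes. Sema7a (ENSMUSG00000038264, chromosome 9, 57940113 to 57962864), a membrane-anchored semaphorin that also acts on immune cells, had 1687 and 892 normalized counts in Lats1/2 KO and 3041 and 4015 in WT. Sema3e had 1308 and 732 in Lats1/2 KO and 2335 and 2510 in WT, and Sema3a, 422.7 kb away from it on chromosome 5, had 84.2 and 70.3 in Lats1/2 KO and 183 and 199 in WT. The log2 fold changes of Sema7a, Sema3e and Sema3a were -1.45, -1.25 and -1.30, a size of fall that 15.5% of listed genes reach. Lats1/2 KO 2 was the lower of its group for each.

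Sema3c, another secreted class 3 semaphorin, had 3737 and 3848 normalized counts in Lats1/2 KO and 5592 and 5833 in WT. Sema4a and Sema4b, transmembrane class 4 members, averaged 2936 ± 49.4 and 2268 ± 69.4 in Lats1/2 KO and 4189 ± 358 and 3651 ± 859 in WT. The log2 fold changes of Sema3c, Sema4a and Sema4b were -0.59, -0.51 and -0.69. On the TMM scale they were -0.23, -0.15 and -0.32 and missed the threshold (edgeR adjusted p = 0.111, 0.265 and 0.139).

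Sema4d, the ligand of plexin-B1, rose, with 441 and 478 normalized counts in Lats1/2 KO and 304 and 267 in WT. Sema5a, a transmembrane semaphorin that signals through plexin-A1 and plexin-A3 in the mouse retina, had 475 and 233 in Lats1/2 KO and 169 and 122 in WT. The Sema5a difference rests largely on Lats1/2 KO 1: its log2 fold change of 1.28 ± 0.42 (SE) was 0.68 without that library.

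Plxnb1 (ENSMUSG00000053646, chromosome 9, 109095389 to 109119917), the receptor for Sema4d, had the smallest adjusted p of all receptors in the authors' deposited table (4.76e-08). It had 365 and 371 normalized counts in Lats1/2 KO and 92.1 and 57.4 in WT, a log2 fold change of 2.30 ± 0.33 (SE), between 2.00 and 2.68 with any one library left out. Plxna3 averaged 303 ± 24.9 in Lats1/2 KO and 177 ± 25.1 in WT, and Plxna2 averaged 2122 ± 159.8 in Lats1/2 KO and 3434 ± 827 in WT. Both bind class 3 semaphorins together with neuropilins, and they moved in opposite directions. On the TMM scale Plxna2 missed the threshold (edgeR adjusted p = 0.142).

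**Figure D3:**
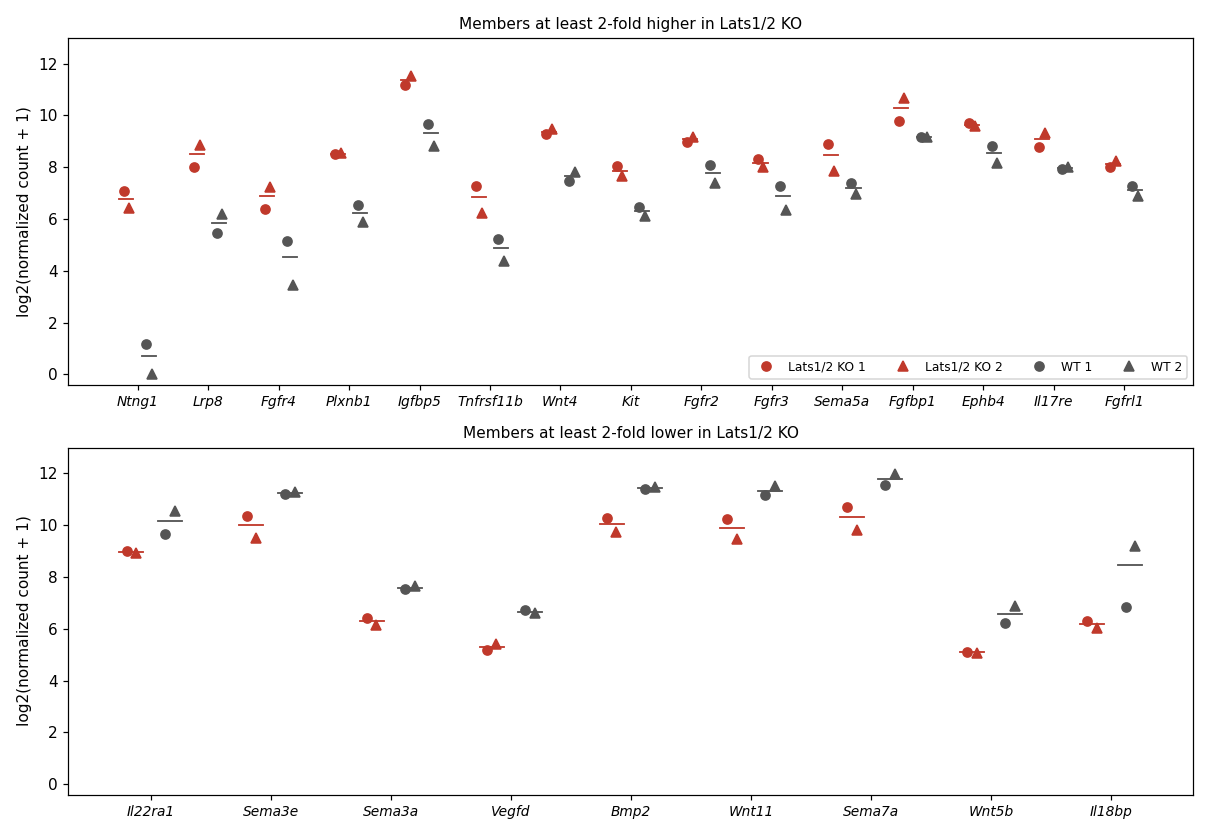
Log2(normalized count + 1) in each library for the members whose log2 fold change was 1 or more in size, 15 higher (top) and 9 lower (bottom), with Lats1/2 KO in red, WT in grey and the group mean as a bar. The groups do not overlap for any gene shown; the gap is widest for Ntng1, and the WT libraries of Il18bp lie farthest apart.

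Of the LDL receptor relatives, Lrp8 (ENSMUSG00000028613, chromosome 4, 107802261 to 107876840), a reelin receptor, had 258 and 460.4 normalized counts in Lats1/2 KO and 42.9 and 71.7 in WT. Its log2 fold change of 2.64 ± 0.44 (SE) was the largest among receptors. Lrp1, a broad endocytic receptor, had 4819 and 4234 in Lats1/2 KO and 6028 and 10476 in WT, and its log2 fold change of -0.87 ± 0.27 (SE) was -0.41 without WT 2. Both Lats1/2 KO libraries lay above both WT libraries for Lrp8, and below both for Lrp1, where WT 2 was far above WT 1. Lrp1 missed the threshold on the TMM scale (edgeR adjusted p = 0.122).

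All 5 listed cytokine receptor subunits of classes I and II fell, a direction taken by 57.1% of all listed genes. Il22ra1, the specific subunit of the IL-22 receptor, had 513 and 488 normalized counts in Lats1/2 KO and 799 and 1485 in WT. Ifnlr1, its counterpart for interferon lambda, had 671 and 626 in Lats1/2 KO and 921 and 1376 in WT. Il10rb, the subunit that both of these receptors share, had 1074 and 1079 in Lats1/2 KO and 1675 and 1569 in WT. Each subunit was lower in both Lats1/2 KO libraries, but Il22ra1 and Ifnlr1 had log2 fold changes of -0.67 and -0.51 without WT 2, in place of -1.19 and -0.83.

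Ifngr2, the second chain of the interferon gamma receptor, had 2046 and 1572 normalized counts in Lats1/2 KO and 2885 and 3233 in WT. Il13ra1, a chain of the receptors for IL-4 and IL-13, averaged 2267 ± 293 in Lats1/2 KO and 3628 ± 130.3 in WT. On the TMM scale none of the 5 passed (edgeR adjusted p from 0.0565 to 0.216). These genes hold 2 pairs of neighbours: Ifnlr1 and Il22ra1 lie 19.99 kb apart on chromosome 4, and Il10rb and Ifngr2 121.2 kb apart on chromosome 16. Il10rb shares 569 bases of exon with Gm21970 on its own strand, so its count is uncertain to that extent.

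Downstream, Stat2, a transcription factor of interferon signalling that is itself interferon-induced, had 682 and 596 normalized counts in Lats1/2 KO and 1372 and 2788 in WT. WT 2 was by far the highest library, as it was for Il22ra1 and Ifnlr1. Jak2 fell to 2502 ± 6.40 in Lats1/2 KO, against 4216 ± 479.7 in WT, while Jak3, Socs2 and the cytokine gene Clcf1 rose by 0.88, 1.11 and 1.59 on the log2 scale.

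Il18bp, a secreted decoy for IL-18 that interferon gamma is known to induce, had 77.9 and 64.1 normalized counts in Lats1/2 KO and 114 and 586 in WT. It has the lowest log2 fold change of all members, -2.30 ± 0.76 (SE), and that value was -0.68 without WT 2 and -3.04 without WT 1. WT 1 lies much closer to the Lats1/2 KO libraries than to WT 2. The part of the high interferon-induced Stat2 of WT 2 in this fall was not tested.

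The IL-17 receptor genes Il17re and Il17rc lie 0.668 kb apart on the same strand of chromosome 6 and moved in opposite directions. Il17re, the receptor chain for the epithelial cytokine IL-17C, had 437 and 641 normalized counts in Lats1/2 KO and 241 and 259 in WT. Il17rc, a chain of the receptor for IL-17A and IL-17F, had 1223 and 1192 in Lats1/2 KO and 1721 and 2633 in WT. Il17re rose by 1.11 ± 0.27 (SE) on the log2 scale. Il17rc had a log2 fold change of -0.85 ± 0.23 (SE), which was -0.51 without WT 2. On the TMM scale Il17rc missed the threshold (edgeR adjusted p = 0.0906).

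In the TNF receptor family 2 rose and 2 fell, where 57.1% of all listed genes fell. Tnfrsf1b (ENSMUSG00000028599, chromosome 4, 145213463 to 145246870), the second TNF receptor, had 1509 and 1546 normalized counts in Lats1/2 KO and 2634 and 3354 in WT, and its adjusted p was 4.33e-05 (the authors' deposited table). Tnfrsf21, death receptor 6, averaged 7299 ± 383 in Lats1/2 KO and 9858 ± 358 in WT, the smallest change among members, with a log2 fold change of -0.43 that was -0.07 on the TMM scale. Tnfrsf11a, the receptor RANK, had 375 and 373 in Lats1/2 KO and 213 and 164 in WT. Tnfrsf11b, osteoprotegerin, the soluble decoy that binds the ligand of RANK, had 155 and 75.0 in Lats1/2 KO and 36.6 and 19.9 in WT. Receptor and decoy of the RANK system thus both rose, by 0.99 ± 0.25 and 2.03 ± 0.57 (SE) on the log2 scale.

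Of 34 further genes of TNF and NF-kappaB signalling 7 were listed, 1 higher and 6 lower. Of all genes inferred as tested 20.6% were listed, and 57.1% of those were lower. The kinase gene Ripk3, of necroptosis, averaged 549 ± 0.543 in Lats1/2 KO and 1265 ± 616 in WT. Casp8, Cflar and Tradd, of the death receptor complex, had log2 fold changes from -0.74 to -0.61, and Chuk and Ikbkg, of the IKK complex, -0.56 and -0.57. Traf3, a brake on noncanonical NF-kappaB, was the 1 that rose, by 0.53 ± 0.18 (SE). None of 10 toll and interleukin-1 family adaptors was listed.

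Igfbp5 (ENSMUSG00000026185, chromosome 1, 72857932 to 72874884), a secreted IGF-binding protein whose promoter is shown above, had 2293 and 2968 normalized counts in Lats1/2 KO and 823 and 448 in WT. It rose by 2.05 ± 0.33 (SE) on the log2 scale, and its adjusted p was 1.34e-07 (the authors' deposited table). Both Lats1/2 KO libraries lay above the higher WT library by more than 2 times. No IGF ligand or receptor gene was listed, and of 21 insulin and IGF pathway genes Pik3cb and Foxo3 were, both lower, with log2 fold changes of -0.97 and -0.69.

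The 2 enzymes both rose. Bmp1, the procollagen C-proteinase and no BMP by function, averaged 235 ± 3.47 in Lats1/2 KO and 133 ± 7.69 in WT. Il4i1, a secreted amino acid oxidase, averaged 961 ± 110.3 and 617 ± 72.0 in Lats1/2 KO and WT. Its count is uncertain: 83.9% of its annotated exon bases are also covered by Tbc1d17 on the opposite strand, it shares 97 bases with Nup62 on its own strand, and the deposited start (44816088 on chromosome 7) is that of Nup62 in GENCODE M21.

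Some members are known to bind one another, in the case of Sema3a with Plxna2 and Plxna3 together with neuropilins. Their directions are set side by side here without a test. Kitl and Kit, Sema4d and Plxnb1, and Sema5a and Plxna3 rose together. Tgfa and Egfr, Bmp2 and Acvr2a, and Sema3a and Plxna2 fell together, but on the TMM scale Tgfa, Acvr2a and Plxna2 missed the threshold (edgeR adjusted p = 0.286, 0.284 and 0.142). Efnb2 fell while Ephb4 rose, and Sema3a fell while Plxna3 rose. Efnb2 also missed the threshold on the TMM scale (edgeR adjusted p = 0.0895).

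**Figure D4:**
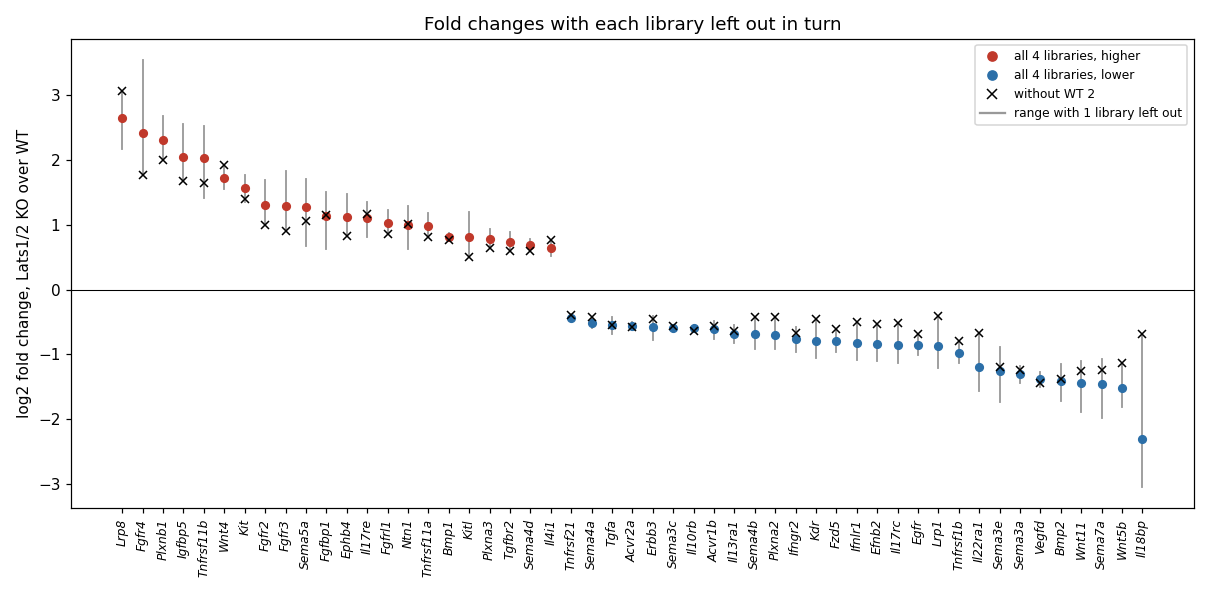
Log2 fold change of Lats1/2 KO over WT for the 51 members other than Ntng1, with all 4 libraries (points), its range when each library is left out in turn (lines) and its value without WT 2 (crosses). Every line stays on its side of 0. Without WT 2, 9 of 29 falls shrink by more than 1.5 times, most of all Il18bp. The share of all listed falls that do so was not computed.

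With each library left out in turn, every member kept its direction, but not its call. Without Lats1/2 KO 2, edgeR called 0 of 52 members (4 higher and 1 lower over all listed genes), and without Lats1/2 KO 1 it called 11 higher and 13 lower members (627 and 876 of 2701 listed genes). It called 21 higher and 29 lower members without WT 1 (1038 and 1416 of 2701 listed genes), and 19 higher and 20 lower without WT 2 (966 and 1213 of 2700). Leaving out WT 2 shrank 9 of 29 falls by more than 1.5 times in log2 units, those of Il18bp, Lrp1, Il22ra1, Kdr, Il17rc, Sema4b, Ifnlr1, Plxna2 and Efnb2, and 1 of 23 rises, Kitl. The same count was not made over all listed genes, so this dependence on WT 2 is not shown to be particular to the members. Leaving out WT 1 shrank none by that much. Without Lats1/2 KO 1 it was Sema5a alone, and without Lats1/2 KO 2 it was Ntn1 and Fgfbp1.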

How the data were processed

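RNA from pyloric cryosections was sequenced as paired 75-base reads from a strand-specific library. The authors deposited one table with raw read counts per gene for 4 libraries, the base mean (a normalized signal), the log2 fold change of Lats1/2 KO over WT, its Wald score, and p-values, per the file headers. TopHat2 2.1.1, HTSeq, DESeq2 and GRCm38 are named in the submitters' processing notes; their settings, such as the strand mode of HTSeq, were not given in the sources used here. This table holds only genes with an adjusted p of at most 0.05, so every test on it follows that selection.

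The authors' size factors (1.10 and 1.28 for Lats1/2 KO, 0.792 and 0.907 for WT) were recovered from the base means, which they give back within 0.0119%. GENCODE M21 named 2698 of 2701 identifiers, and deposited starts were raised by 1. Counts were tested with edgeR 4.0.16 (R 4.3.3, quasi-likelihood, Benjamini-Hochberg adjustment over the whole table, threshold 0.05) on those factors. DESeq2 1.42.0, TMM, DESeq2 factors, no filter on low counts, replicate blocks and leaving out each library were alternatives, and the edgeR script was tested on simulated data. Dispersions come from listed genes only, so SE describe these genes. Intervals cover counting error only. Every member is named, with values in each library for those whose log2 fold change was 1 or more in size and for the 3 smallest deposited adjusted p in each direction among ligands and among receptors; others given per library were chosen after their values were seen. Members and gene lists were chosen with earlier results of these data known. Of the JAK-STAT list, 1 gene and the list's count are not reported here.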

Additional observations from a re-analysis of the deposited data

How the results depend on the processing

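No member reversed under any alternative. The 23 higher and 29 lower calls became 23 and 8 on TMM factors, 23 and 6 on DESeq2 size factors from the listed genes, and 0 to 21 higher and 0 to 29 lower with a library left out. Leaving a library out leaves 1 sample in a group, which is then assumed to vary like the other group. The ligand median log2 fold change of -0.64 became -0.27 on TMM and -0.23 on DESeq2 factors (-0.76 to -0.53 with a library left out), and the receptor median of -0.57 became -0.21 and -0.16 (-0.61 to -0.42). Over all listed genes, 1157 higher and 1541 lower calls became 1157 and 494 on TMM, 1157 and 432 on DESeq2 factors, 627 and 876 without Lats1/2 KO 1, and 4 and 1 without Lats1/2 KO 2; the cause was not tested. The DESeq2 Wald test and no filter on low counts kept 23 and 29. With the replicate block 20 higher and 29 lower members were called (1084 and 1451 of 2700 listed genes); Sema4d, Plxna3 and Bmp1 lost their calls. Deviations of same-numbered libraries correlated at -0.162 over listed genes, so the numbers are not shown to pair; a crossed pairing, added after seeing the data, gave 22 and 29 (1142 and 1518 of 2700), and Sema5a lost its call. With 2 libraries a group, the widest SE of a member's log2 fold change were 0.88 (Ntng1), 0.76 (Il18bp) and 0.69 (Fgfr4).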
